A study of Arabidopsis thaliana with 12 samples.

Results

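The aquaporin family of Arabidopsis comprises channel proteins of the plasma membrane (PIP), of the vacuolar membrane (TIP, tonoplast), of the NOD26-like type (NIP) and of the small basic type (SIP). Members were taken by locus code, 1 probe set per gene, and all 34 listed loci were found among the 27827 probe sets. They fall into 5 PIP1, 8 PIP2, 10 TIP, 8 NIP and 3 SIP genes. RNA came from well-expanded leaves of plants 4 to 5 weeks old, detached and floated on water for 6 h at 22 °C. The groups were dcl1-9 dark, dcl1-9 light, WT dark and WT light, with 3 biological replicates and 1 array per replicate in each. Light was 100 µE, and darkness began 2 h after the onset of a 12 h light period. The WT was Columbia-0. The dcl1-9 mutant carries a weak allele of DCL1, an RNase III that cuts miRNA precursors. It was first isolated in the ecotype Wassilewskija and then backcrossed 5 times to Columbia-0.

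Aquaporins form tetramers whose monomers each hold a pore. PIPs set the water permeability of the plasma membrane, and some also pass CO2 or hydrogen peroxide. In maize, PIP1 proteins reach the plasma membrane only together with PIP2 proteins. TIPs carry water, and several carry ammonia or urea, across the tonoplast. NIPs pass boric acid, silicic acid in other species, arsenite and other small solutes, and SIPs reside in the endoplasmic reticulum. In leaves, PIPs of the bundle sheath and veins contribute to hydraulic conductance, which in many species follows light and darkness.

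The deposited values are linear probe set intensities, with array medians of 30.0 to 34.5. The number of arrays limits the precision, and the p-values measure the spread between the biological replicates of a group. RBCS1A, the small subunit of Rubisco, stood between 2313 and 3837 on every array. The 5 seed markers summed to 63.3 to 121.2, the 4 pollen markers to 38.4 to 87.1 and the 4 root markers to 54.5 to 115 per array, and none of these markers was at 0. The probe set of DCL1 read 51.5 to 67.4 in dcl1-9 dark and 36.5 to 48.3 in dcl1-9 light, against 21.3 to 26.6 in WT dark and 17.1 to 21.5 in WT light. Where its probes lie with respect to the insertion was not used here, so this reading is no check of the genotype labels. ACT2, an actin gene, ranged from 492.5 to 1021. Of all probe sets, 9686 (34.8%) had a mean intensity under 20. Among the aquaporins 26 lay at 20 or more and 8 below it, and no member was filtered out.

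Darkness changed a group of PIP and TIP genes in both genotypes. In dcl1-9, 8 of the 34 members were higher and 3 lower in dark than in light leaves by limma with a Benjamini-Hochberg adjusted p under 0.05, where 23.7% of all probe sets were called (10.8% higher and 12.9% lower). In the WT 9 were higher and 4 lower, where 27.4% of all probe sets were called (12.8% higher and 14.5% lower). The median log2 fold-change of the family was 0.31 in dcl1-9 and 0.30 in the WT, beside medians of 0.06 and 0.06 over all probe sets. A higher value in darkness was measured for 24 members in dcl1-9 and 26 in the WT, against 55.7% and 55.4% of all probe sets. In dcl1-9 the dark and light arrays of 12 members did not overlap with dark higher (19.7% of all probe sets), and those of 5 did not with dark lower (19.6%). In the WT these counts were 12 (19.4%) and 4 (18.3%).

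**Figure D1:**
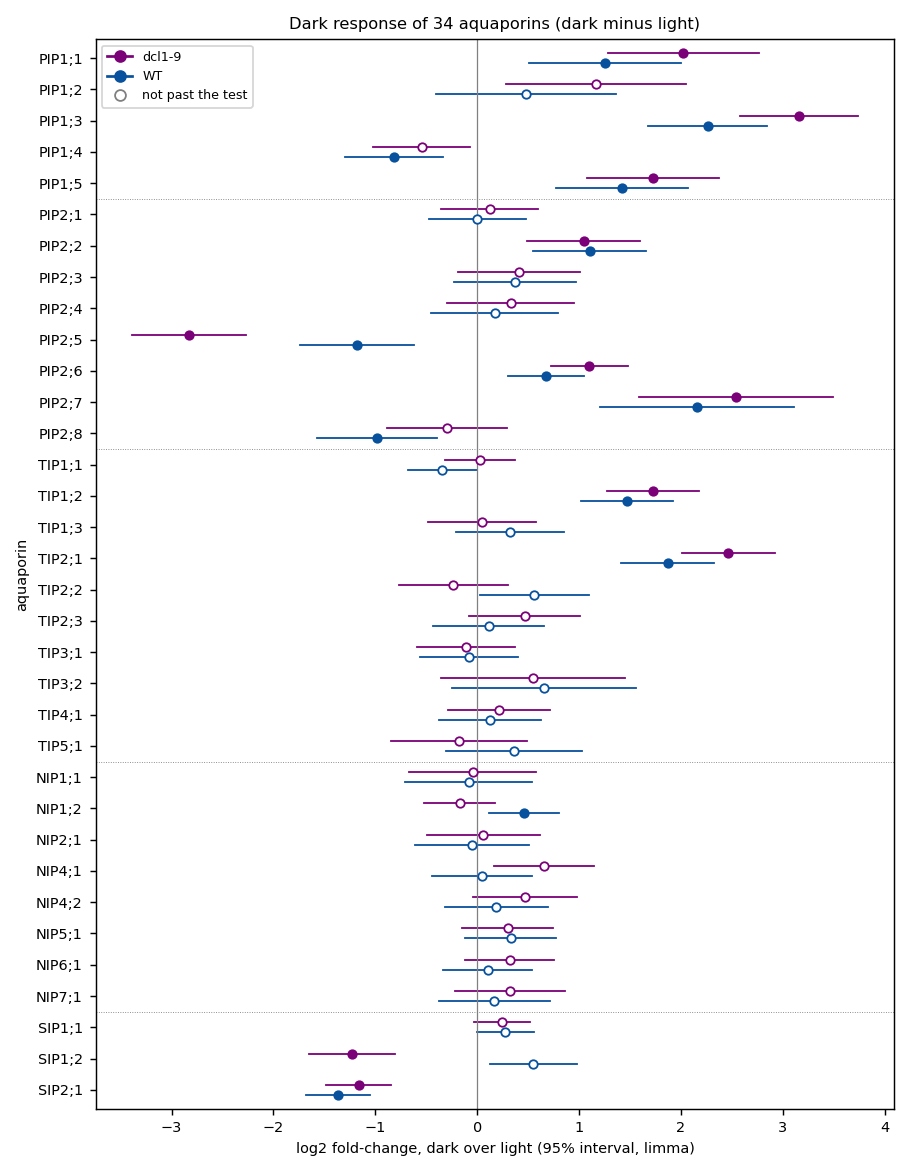
Log2 fold-change of dark over light for each of the 34 aquaporins (x axis), with 95% intervals from limma, in dcl1-9 (purple, upper point of each pair) and the WT (blue, lower point). Filled points passed the test. The PIP1, PIP2, TIP, NIP and SIP genes run from top to bottom, with PIP1;3 farthest to the right (3.16 and 2.26) and PIP2;5 farthest to the left in dcl1-9 (-2.83).

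The calls of the 2 genotypes covered largely the same genes. Of the 34 members, 8 were higher in darkness in both genotypes, namely PIP1;1, PIP1;3, PIP1;5, PIP2;2, PIP2;6, PIP2;7, TIP1;2 and TIP2;1. PIP2;5 and SIP2;1 were lower in both. The share of all probe sets called alike in both genotypes is not given, so this overlap is not read as particular to aquaporins. SIP1;2 was called lower in dcl1-9 alone, and in the WT alone 1 NIP gene was higher and 1 PIP1 and 1 PIP2 gene lower, while 20 members were called in neither. A call in 1 genotype alone does not show that the responses differ, and the test of that difference is given further on. The RNA is that of whole leaves, in which fewer cells of a type and less RNA per cell cannot be told apart.

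Among the PIP1 genes 3 of 5 rose in dcl1-9, and in the WT 3 rose and 1 fell. PIP1;3 (AT1G01620) had the largest rise of the family in both genotypes. Its intensities were 557, 461 and 768 in dcl1-9 dark, against 50.4, 73.2 and 74.8 in dcl1-9 light. In WT dark they were 1283, 1209 and 1462, against 250.3, 186 and 442 in WT light. The dark and light arrays lay far apart in both genotypes, and the log2 fold-change was 3.16 ± 0.27 in dcl1-9 (SE, n = 3 arrays a group, limma adjusted p = 1.16e-06) and 2.26 ± 0.27 in the WT (limma adjusted p = 1.85e-05). These are 8.94-fold and 4.80-fold rises.

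A further pair of PIP1 channels moved the same way. PIP1;1 (AT3G61430) read 174, 195 and 327 in dcl1-9 dark, against 33.1, 61.1 and 81.4 in dcl1-9 light, and 228, 194 and 344 in WT dark, against 92.1, 77.4 and 156 in WT light. No dark array fell within the light range of its genotype. This was a log2 fold-change of 2.03 ± 0.35 in dcl1-9 (SE, limma adjusted p = 0.00054) and 1.25 ± 0.35 in the WT (limma adjusted p = 0.0133). The WT call was lost without WT light replicate 1, WT light replicate 2 or WT dark replicate 3.

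The other, PIP1;5 (AT4G23400), read 397, 396 and 525 in dcl1-9 dark, against 89.9, 134 and 189 in dcl1-9 light. In WT dark it read 506, 471 and 487, against 187, 109.7 and 295 in WT light. The WT dark arrays were close together and the WT light arrays spread widely. Its log2 fold-change was 1.73 ± 0.30 in dcl1-9 (SE, limma adjusted p = 0.000654) and 1.42 ± 0.30 in the WT (limma adjusted p = 0.00235).

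PIP1;4 (AT4G00430), a channel reported to pass hydrogen peroxide and CO2, went the other way. It had 16.3, 13.6 and 19.6 in dcl1-9 dark, against 24.8, 20.4 and 26.7 in dcl1-9 light, and 12.5, 18.1 and 14.8 in WT dark, against 23.5, 22.8 and 34.2 in WT light. Each dark array lay under each light array of its genotype, but only the WT passed the test, with log2 fold-changes of -0.55 ± 0.22 in dcl1-9 (SE, limma adjusted p = 0.0977) and -0.82 ± 0.22 in the WT (limma adjusted p = 0.0127). The WT call did not hold against a 1.2-fold minimum, under the study's criterion (its 90% lower bound on the fold-change must exceed 1.2), or without WT light replicate 3 or WT dark replicate 1. These signals are dim, and with 16 added before the log the WT value was -0.45 (limma adjusted p = 0.0138). PIP1;2 (AT2G45960), a main PIP of rosette leaves, was not called: its arrays ranged from 146 to 190.1 in dcl1-9 dark, against 44.9 to 124 in dcl1-9 light, without overlap (log2 fold-change 1.16 ± 0.41 SE, limma adjusted p = 0.055). In the WT the ranges of 103 to 207 in darkness and 56.8 to 191 in light overlapped.

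Among the 8 PIP2 genes, which form active water channels on their own, 3 rose and 1 fell in dcl1-9, and 3 rose and 2 fell in the WT. PIP2;7 (AT4G35100), a PIP2 known for a response to salt, had the largest rise. It read 64.4, 46.3 and 111 in dcl1-9 dark, against 10.7, 11.5 and 13.6 in dcl1-9 light. In WT dark it read 126, 74.7 and 163, against 29.3, 11.6 and 50.4 in WT light. The light arrays of dcl1-9 sat together near the bottom of the range. The log2 fold-change was 2.54 ± 0.44 in dcl1-9 (SE, limma adjusted p = 0.000648) and 2.16 ± 0.44 in the WT (limma adjusted p = 0.00183). With 16 added before the log the dcl1-9 value was 1.62 (limma adjusted p = 0.00148).

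PIP2;2 (AT2G37170), best known from root water transport, read 475, 646 and 631 in dcl1-9 dark, against 214, 324 and 316 in dcl1-9 light. The WT gave 319.6, 541 and 556 in darkness, against 269.6, 148 and 243 in light. Its rise was of like size in both, at 1.05 ± 0.26 in dcl1-9 (SE, log2, limma adjusted p = 0.00755) and 1.10 ± 0.26 in the WT (limma adjusted p = 0.00458). Its direct neighbour on chromosome 2, PIP2;3 (AT2G37180, also RD28, named for its response to desiccation), has a near-identical coding sequence, and sharing of signal between the pair was not tested. That probe set read 22.9 to 36.5 in dcl1-9 dark, against 17.2 to 25.9 in dcl1-9 light, and 22.2 to 31.8 in WT dark, against 13 to 27.4 in WT light. Its log2 fold-changes of 0.41 and 0.37 did not pass the test.

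PIP2;6 (AT2G39010), found in the veins of leaves, read 364, 425 and 497 in dcl1-9 dark, against 189, 187 and 221 in dcl1-9 light. It read 424, 500.4 and 466 in WT dark, against 238, 268 and 379 in WT light. Dark arrays stood above light arrays in both genotypes. Limma gave a log2 fold-change of 1.10 ± 0.18 in dcl1-9 (SE, limma adjusted p = 0.000289) and 0.68 ± 0.18 in the WT (limma adjusted p = 0.00888), and the WT call was lost against a 1.2-fold minimum and without WT light replicate 1.

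PIP2;5 (AT3G54820) had the largest fall of the family in dcl1-9. It read 6.51, 8.87 and 6.34 in dcl1-9 dark, against 63.3, 38.4 and 54.2 in dcl1-9 light. In WT dark it read 12.4, 17.1 and 12.4, against 42.1, 31.9 and 22.6 in WT light. All dark arrays were under all light arrays, and the dark values lay among the dim signals. This was a log2 fold-change of -2.83 ± 0.26 in dcl1-9 (SE, limma adjusted p = 2.15e-06) and -1.18 ± 0.26 in the WT (limma adjusted p = 0.00319). At such dim values the size depends on the log scale, since with 16 added before the log it was -1.53 in dcl1-9 (limma adjusted p = 8.09e-06) and -0.67 in the WT (limma adjusted p = 0.00538).

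PIP2;8 (AT2G16850) fell in the WT alone. Its arrays read 19.7, 22.2 and 22.3 in dcl1-9 dark, against 24.5, 20.1 and 36.6 in dcl1-9 light, and 26.4, 25.1 and 34.2 in WT dark, against 48.0, 41.7 and 87.9 in WT light. WT light replicate 3 was far above the other arrays. The log2 fold-change was -0.30 ± 0.27 in dcl1-9 (SE, limma adjusted p = 0.507) and -0.99 ± 0.27 in the WT (limma adjusted p = 0.0138), and the WT call was lost without WT light replicate 3 (-0.66, limma adjusted p = 0.0676), without WT dark replicate 2 and against a 1.2-fold minimum.

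PIP2;1 (AT3G53420), a plasma membrane channel of leaf veins and guard cells, showed little difference between dark and light. Its arrays ranged from 184 to 277 in dcl1-9 dark, against 176 to 255 in dcl1-9 light, and from 247 to 369.6 in WT dark, against 276 to 429 in WT light. Limma gave a log2 fold-change of 0.12 in dcl1-9 (95% interval -0.35 to 0.60) and 0.00 in the WT (95% interval -0.48 to 0.48). PIP2;4 (AT5G60660), a PIP2 of roots, likewise did not pass, with 64.1 to 113 in dcl1-9 dark, against 57.3 to 71.9 in dcl1-9 light, and 46.6 to 67.3 in WT dark, against 30.2 to 73.2 in WT light.

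**Figure D2:**
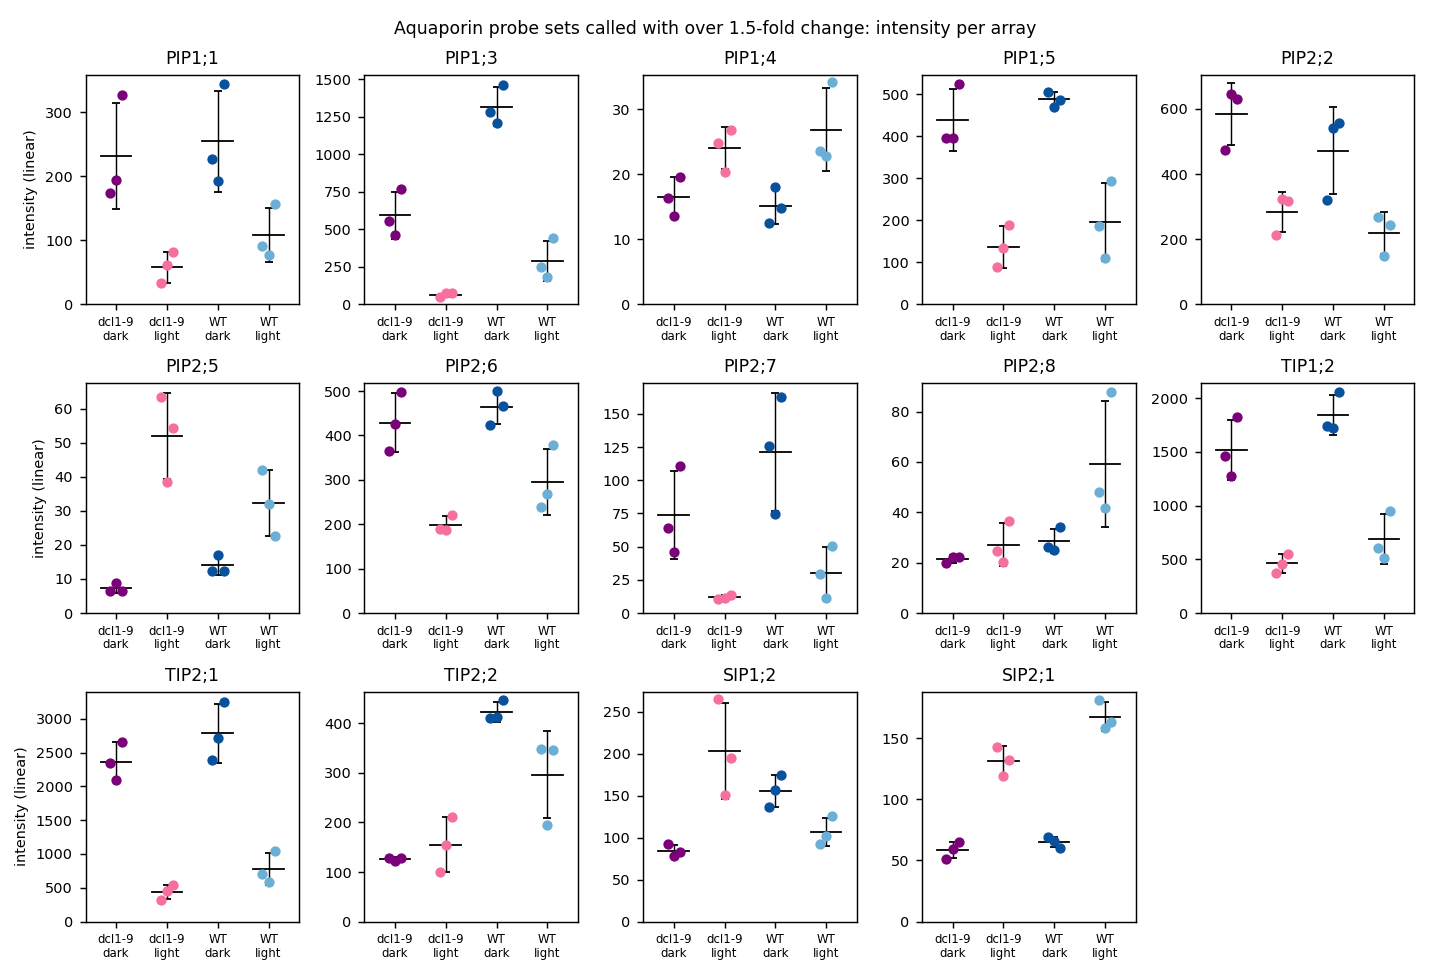
Linear intensity per array for the 14 aquaporins called in at least 1 comparison with over 1.5-fold change, with dcl1-9 dark, dcl1-9 light, WT dark and WT light from left to right. Points are arrays, and bars show the mean and SD of 3 arrays. PIP1;3 in dcl1-9 light (50.4 to 74.8) and PIP2;5 in dcl1-9 dark (6.34 to 8.87) stand below the WT arrays of the same treatment.

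Of the 10 TIP genes 2 rose in each genotype, the same 2, and none fell. TIP2;1 (AT3G16240, delta-TIP), a tonoplast channel for water and ammonia, read 2352, 2091 and 2658 in dcl1-9 dark, against 323, 445 and 537 in dcl1-9 light. It read 2384, 2712 and 3254 in WT dark, against 703, 585 and 1046 in WT light. Dark and light arrays lay well apart in both genotypes. This was a log2 fold-change of 2.47 ± 0.21 in dcl1-9 (SE, limma adjusted p = 1.24e-06), a 5.53-fold rise, and 1.87 ± 0.21 in the WT (limma adjusted p = 1.21e-05), a 3.66-fold rise.

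TIP1;2 (AT3G26520), a tonoplast channel of the gamma-TIP group, read 1466, 1273 and 1825 in dcl1-9 dark, against 377, 456 and 551 in dcl1-9 light, and 1745, 1726 and 2057 in WT dark, against 604, 508 and 949 in WT light. Again no dark array reached down to a light array. Its log2 fold-change was 1.72 ± 0.21 in dcl1-9 (SE, limma adjusted p = 2.94e-05) and 1.47 ± 0.21 in the WT (limma adjusted p = 9.18e-05). TIP1;1 (AT2G36830), the gamma-TIP proper, did not pass, with 1217 to 1499.5 in dcl1-9 dark, against 1106 to 1477 in dcl1-9 light, and 1024 to 1223 in WT dark, against 1102 to 1666 in WT light. Its log2 fold-change was 0.03 in dcl1-9 (95% interval -0.31 to 0.37) and -0.34 in the WT (limma adjusted p = 0.136).

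TIP2;2 (AT4G17340), a TIP best known from roots, was not called for darkness in either genotype. It read 128, 123 and 128 in dcl1-9 dark, against 100.2, 155 and 211 in dcl1-9 light, with overlap, and 411, 413 and 447 in WT dark, against 348, 195 and 347 in WT light, without overlap. The log2 fold-change was -0.23 ± 0.25 in dcl1-9 (SE, limma adjusted p = 0.576) and 0.56 ± 0.25 in the WT (limma adjusted p = 0.117). TIP1;3 (AT4G01470) and TIP5;1 (AT3G47440), known from pollen, TIP2;3 (AT5G47450) and TIP4;1 (AT2G25810), known from roots, and TIP3;1 (AT1G73190) and TIP3;2 (AT1G17810), of seed storage vacuoles, were not called for darkness, with log2 fold-changes of -0.18 to 0.55 in dcl1-9 and -0.08 to 0.66 in the WT. All of these but TIP1;3 and TIP4;1 had means under 20.

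No NIP gene was called for darkness in dcl1-9, and 1 rose in the WT. In dcl1-9, 1 of the 8 had an unadjusted p under 0.05, beside 9301 of all 27827 probe sets. NIP1;2 (AT4G18910), a plasma membrane channel linked to aluminium malate uptake in roots, read 55.8, 57.2 and 57.2 in dcl1-9 dark, against 71.2, 57.4 and 64.2 in dcl1-9 light. In WT dark it read 75.2, 75.7 and 67.7, against 64.5, 47.5 and 48.4 in WT light. Dark arrays lay below light arrays in dcl1-9, though barely (57.21 at most against 57.35 at least), and above them in the WT. Limma gave a log2 fold-change of -0.17 ± 0.16 in dcl1-9 (SE, limma adjusted p = 0.511) and 0.46 ± 0.16 in the WT (limma adjusted p = 0.0472), a WT call that was lost under 5 of the other settings and without any 1 of 10 of the arrays.

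NIP5;1 (AT4G10380), the boric acid channel of root uptake, and NIP6;1 (AT1G80760), which directs boron to young leaves, had higher mean values in darkness but did not pass. The first ranged from 19.5 to 22.8 in dcl1-9 dark, against 14.5 to 19.4 in dcl1-9 light, and from 29.6 to 34.4 in WT dark, against 20.7 to 33.9 in WT light. The second ranged from 37.8 to 48.1 in dcl1-9 dark, against 23.7 to 41.0 in dcl1-9 light, and from 40.4 to 50.5 in WT dark, against 40.4 to 42.7 in WT light. NIP7;1 (AT3G06100), a boric acid channel of anthers, had log2 fold-changes of 0.32 in dcl1-9 and 0.17 in the WT. NIP1;1 (AT4G19030), an arsenite-permeable channel, NIP2;1 (AT2G34390), induced by lack of oxygen, and the adjacent NIP4;1 (AT5G37810) and NIP4;2 (AT5G37820) of pollen had means under 20 and no call, the nearest being NIP4;1 in dcl1-9 (0.65 ± 0.23 SE, limma adjusted p = 0.0523).

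The SIP genes, channels of the endoplasmic reticulum, gave 2 falls in dcl1-9 and 1 in the WT. SIP2;1 (AT3G56950) read 51.4, 59.7 and 64.9 in dcl1-9 dark, against 143, 119 and 132 in dcl1-9 light. It read 69.0, 66.0 and 60.4 in WT dark, against 182, 159 and 163 in WT light. The replicates were close and the treatments well apart, with log2 fold-changes of -1.16 ± 0.15 in dcl1-9 (SE, limma adjusted p = 4.25e-05) and -1.37 ± 0.15 in the WT (limma adjusted p = 7.35e-06).

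SIP1;2 (AT5G18290) differed in sign between the 2 genotypes. It read 92.0, 78.6 and 82.9 in dcl1-9 dark, against 265, 150.5 and 195 in dcl1-9 light. In WT dark it read 137, 157 and 175, against 92.3, 102 and 126 in WT light. All dark arrays were below all light arrays in dcl1-9 and above them in the WT. This was a log2 fold-change of -1.23 ± 0.20 in dcl1-9 (SE, limma adjusted p = 0.000316) and 0.55 ± 0.20 in the WT (limma adjusted p = 0.051), the second of which did not pass. SIP1;1 (AT3G04090) read 392 to 448 in dcl1-9 dark, against 334 to 375 in dcl1-9 light, and 539 to 591 in WT dark, against 392 to 516 in WT light, without overlap but also without a call (log2 fold-changes 0.24 and 0.28).

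Of the 2 tests of genotype, the one in light gave 1 member above and 4 below the WT in dcl1-9, where 9.25% of all probe sets were called (5.92% higher and 3.33% lower). In darkness 0 were higher and 4 lower by limma, where 7.46% were called (4.45% higher and 3.02% lower), and the study's lower-bound criterion gave 7 lower (5.60% of all probe sets). At an unadjusted p under 0.05 no member was higher in darkness either, and 8 were lower. In either direction 7273 of the 27827 probe sets were at that level in darkness. The median of all probe sets was itself below 0, at -0.14 in light and -0.12 in darkness, beside family medians of -0.43 and -0.24. Single genes are therefore given below as log2 differences less that median, called relative. Their SEs and adjusted p-values from limma belong to the unshifted difference tested against 0. Over probe sets with means of 20 or more the median was nearer to 0, at -0.04 in light and -0.03 in darkness. For members of that brightness the shift used makes falls look smaller, and rises larger, than a shift by that median would. A value below 0 before the shift was measured for 26 members in light and 26 in darkness. The 8 members above 0 in each stand beside 37.4% of all probe sets in light and 38.2% in darkness. In light 8 members (19.4% of all probe sets) and in darkness 10 members (19.2%) were lower in dcl1-9 without overlap.

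The largest genotype difference was that of PIP1;3 in light, for which the arrays are given above. Its mean was 66.2 ± 13.7 in dcl1-9 light, against 293 ± 133 in WT light (SD, n = 3), a relative log2 difference of -1.93 (SE 0.27, limma adjusted p = 0.000753). In darkness it was 595 ± 157 in dcl1-9, against 1318 ± 129.7 in the WT (SD, n = 3), a relative difference of -1.05 (SE 0.27, limma adjusted p = 0.02). The dcl1-9 and WT arrays did not overlap in light or in darkness. The light call held under every setting tried, and the dark call was lost against a 1.2-fold minimum and without WT dark replicate 1, WT dark replicate 3, dcl1-9 dark replicate 1 or dcl1-9 dark replicate 2. The gene lies near DCL1 on chromosome 1, with 72 annotated genes between them. Of the 63 probe sets in this interval 5 were higher and 3 lower in light, and 4 were higher and 2 lower in darkness, with median differences of -0.17 and -0.15. Whether Wassilewskija sequence remains there was not tested.

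TIP2;2 had the largest genotype difference in darkness, with a mean of 126 ± 3.16 in dcl1-9 dark, against 424 ± 20.2 in WT dark (SD, n = 3). The replicates of each group were close together, and the relative log2 difference was -1.62 (SE 0.25, limma adjusted p = 0.00136), which held under every setting tried. In light it was 155 ± 55.6 in dcl1-9, against 297 ± 88.1 in the WT (SD, n = 3), with overlapping arrays and a relative difference of -0.81 (SE 0.25, limma adjusted p = 0.0314). The light call was lost against a 1.2-fold minimum, with the compared groups alone, and without WT light replicate 1 or 3 or dcl1-9 light replicate 1 or 2.

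A further pair of genes was lower in dcl1-9 in light. PIP2;8 averaged 27.1 ± 8.55 in dcl1-9 light, against 59.2 ± 25.1 in WT light (SD, n = 3), a relative log2 difference of -0.96 (SE 0.27, limma adjusted p = 0.026). TIP2;1 averaged 435 ± 107 in dcl1-9 light, against 778 ± 239 in WT light (SD, n = 3), a relative difference of -0.69 (SE 0.21, limma adjusted p = 0.0298). Neither gene's arrays overlapped, yet both calls were lost against a 1.2-fold minimum, with the compared groups alone, and without WT light replicate 3, dcl1-9 light replicate 1 or dcl1-9 light replicate 2. The second was also lost without the intensity trend, under the lower-bound criterion and without WT light replicate 1.

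PIP2;5 was lower in dcl1-9 in darkness, with a mean of 7.24 ± 1.41 in dcl1-9, against 14.0 ± 2.73 in the WT (SD, n = 3), a relative log2 difference of -0.83 (SE 0.26, limma adjusted p = 0.0412). In light its mean was 52.0 ± 12.6 in dcl1-9, against 32.2 ± 9.72 in the WT, with overlapping arrays and no call (limma adjusted p = 0.0989). The dark call rests on dim values, where a constant of 16 added before the log took the unshifted difference to -0.36 (limma adjusted p = 0.163). It was also lost under quantile normalization, against a 1.2-fold minimum and without any 1 of 7 of the arrays, which were each dark array and dcl1-9 light replicate 3.

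SIP1;2 was the one member higher in dcl1-9 in light, at 204 ± 57.5 in dcl1-9, against 107 ± 17.1 in the WT (SD, n = 3), a relative log2 difference of 1.04 (SE 0.20, limma adjusted p = 0.0139). In darkness it was lower, at 84.5 ± 6.87 in dcl1-9, against 156 ± 19 in the WT, a relative difference of -0.76 (SE 0.20, limma adjusted p = 0.0175). Neither pair of groups overlapped. The light call was lost against a 1.2-fold minimum, with the compared groups alone and without WT light replicate 1, and the dark call against a 1.2-fold minimum and without WT dark replicate 3 or dcl1-9 dark replicate 1 or 2.

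Several further members stood apart by genotype without passing the test. SIP1;1 was lower in dcl1-9 on every array, with relative log2 differences of -0.26 in light (limma adjusted p = 0.067) and -0.31 in darkness (limma adjusted p = 0.0581). NIP5;1 was likewise lower without overlap, at -0.39 in light (limma adjusted p = 0.12) and -0.43 in darkness (limma adjusted p = 0.115). TIP1;3 in darkness read 20.8 to 21.6 in dcl1-9, against 31.8 to 41.5 in the WT (limma adjusted p = 0.056). PIP2;1 in light read 176 to 255 in dcl1-9, against 276 to 429 in the WT (limma adjusted p = 0.101), and PIP2;6 in light read 187 to 221, against 238 to 379 (limma adjusted p = 0.0634).

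**Figure D3:**
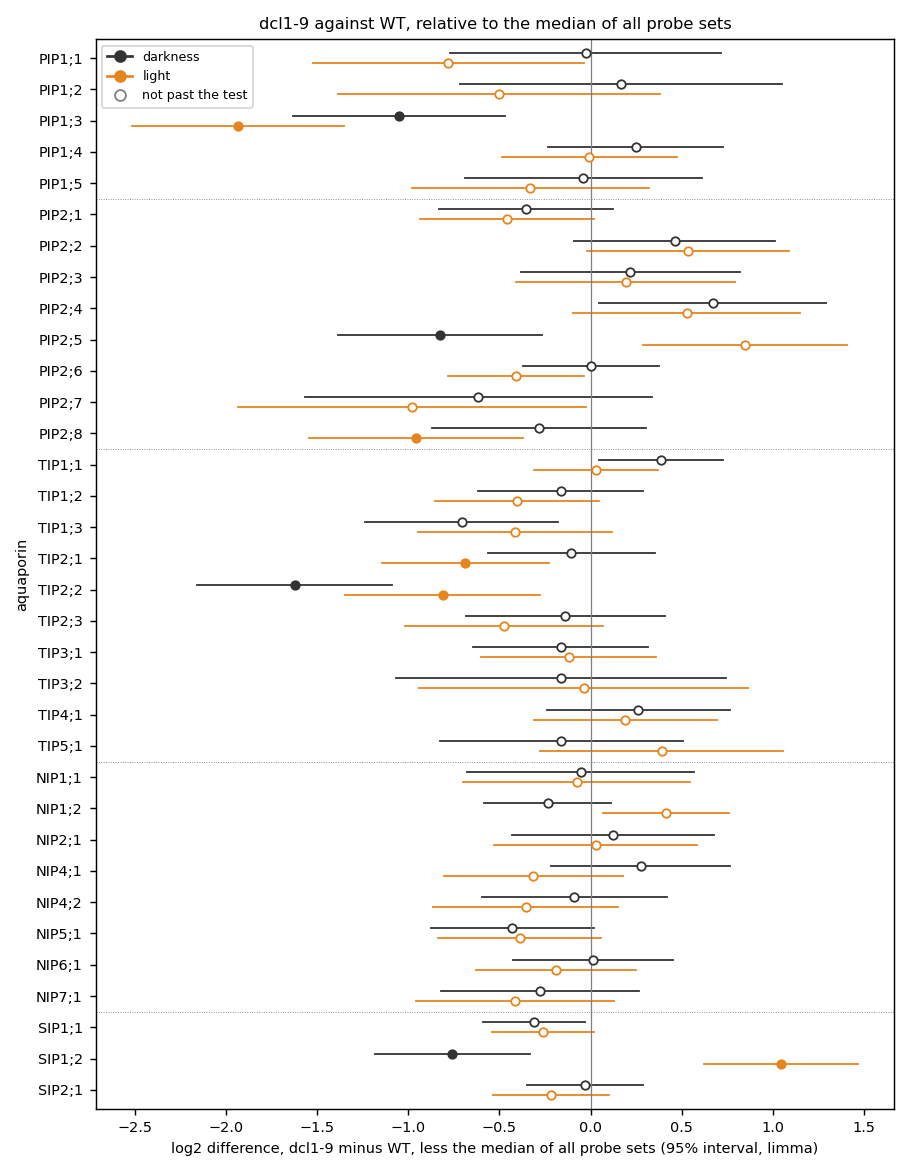
Log2 difference of dcl1-9 minus WT for each of the 34 aquaporins (x axis), less the median over all probe sets, with 95% intervals from limma, in darkness (dark grey, upper point) and in light (orange, lower point). Filled points passed the test on the unshifted difference. PIP1;3 lies at -1.05 and -1.93, TIP2;2 at -1.62 and -0.81, and SIP1;2 on opposite sides of 0.

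The difference of the dark responses, dcl1-9 minus WT, passed the test for 1 member. SIP1;2 had a difference of -1.79 ± 0.28 (SE, log2, limma adjusted p = 0.0204), in a comparison where 0.104% of all probe sets were called (0.0144% higher and 0.0898% lower). Its adjusted p was 0.067 with each array centred on its median, 0.0586 without the intensity trend and 0.0572 against a 1.2-fold minimum. The call was also lost without any 1 of 7 of the arrays, namely each dcl1-9 dark array, WT dark replicates 1 and 3, WT light replicate 1 and dcl1-9 light replicate 3, with adjusted p-values from limma of 0.0545 to 0.0802. The estimate itself stayed between -1.88 and -1.69 in those fits.

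No other member passed, though 4 members in all were lower and 1 was higher at an unadjusted p under 0.05. At that level, in either direction, stood 1595 of the 27827 probe sets. PIP2;5 had a difference of -1.65 (95% interval -2.45 to -0.86, limma adjusted p = 0.147), with the larger fall in dcl1-9. PIP1;3 had one of 0.90 (95% interval 0.08 to 1.72, limma adjusted p = 0.806), TIP2;2 one of -0.80 (limma adjusted p = 0.837) and NIP1;2 one of -0.63 (limma adjusted p = 0.626). Of the 14 members called in darkness in either genotype, 9 had the larger absolute response in dcl1-9 and 5 in the WT, and 28 of all 34 had the same sign in both. The 14 were picked by their dark calls, and the shares of all probe sets for these counts are not given. No stronger response of the family in dcl1-9 is read from them. The PIP1 and the PIP2 gene called for darkness in the WT alone had differences of 0.27 (95% interval -0.41 to 0.95) and 0.69 (95% interval -0.14 to 1.52).

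**Figure D4:**
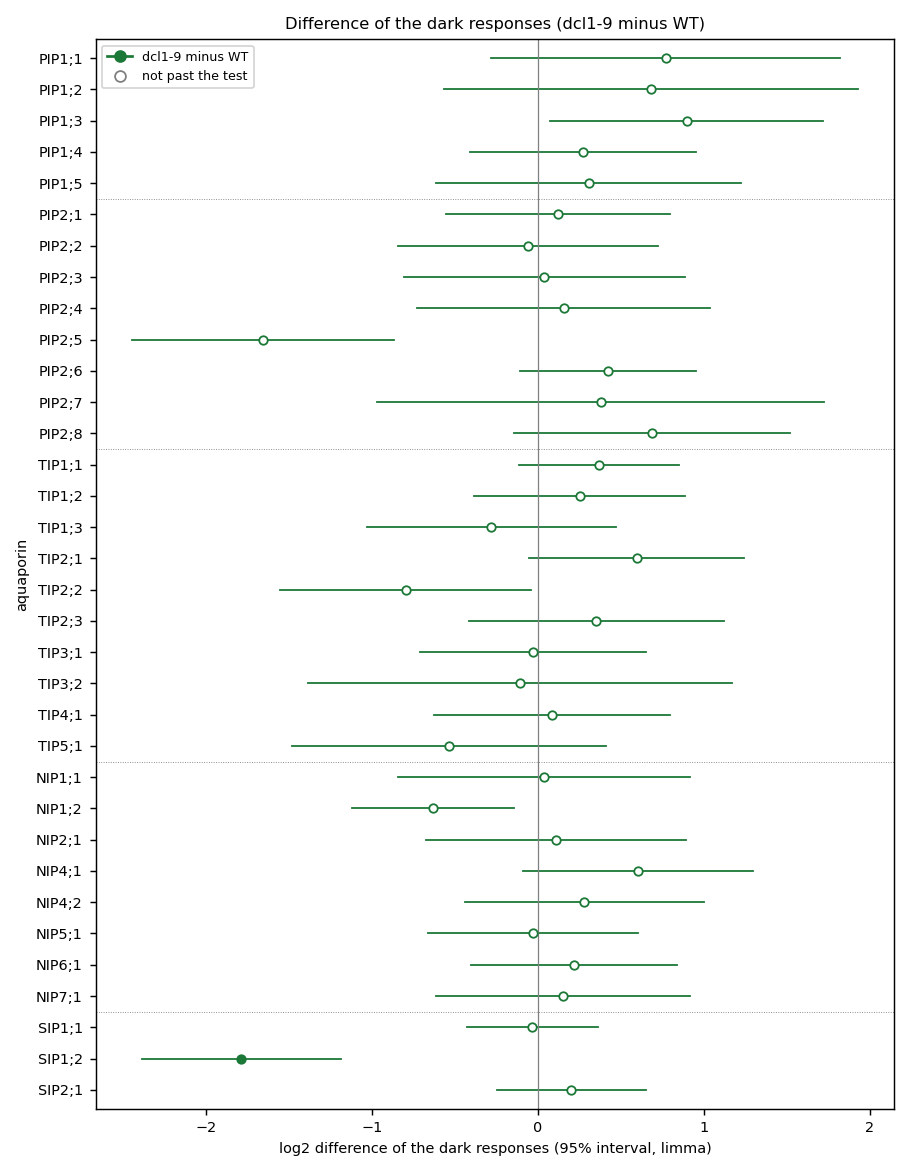
Difference between the dark response in dcl1-9 and that in the WT for each of the 34 aquaporins (x axis, log2, dcl1-9 minus WT), with 95% intervals from limma. SIP1;2 at -1.79 is the one filled point, having passed the test, and the point at -1.65 is PIP2;5.

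The members also differed between replicates of a group. Among the 26 members with a mean of 20 or more, replicate 3 held the highest of the 3 values for 17 in dcl1-9 dark, 17 in dcl1-9 light, 13 in WT dark and 15 in WT light. Over all probe sets of that brightness the shares were 31.0%, 35.5%, 27.3% and 24.4%. WT light replicate 2 held the lowest value for 17 of the 26, against 29.1% of those probe sets. The labels give no batch or date for the arrays, so the source of these differences was not tested. Correlations between same-numbered arrays are given in the closing section.

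Genes of water deficit and abscisic acid signaling were followed beside the aquaporins. Of 12 such genes 1 rose and 6 fell in darkness in dcl1-9, and 1 rose and 7 fell in the WT, with medians of -1.05 and -1.20. Over all probe sets 10.8% rose and 12.9% fell in dcl1-9, and 12.8% rose and 14.5% fell in the WT. COR15A, a chloroplast protein of cold and drought, fell by 2.97 in dcl1-9 (log2, limma adjusted p = 1.28e-06) and by 3.52 in the WT (limma adjusted p = 2.1e-07), and RD29A, a dehydration-responsive gene, fell by 2.46 and 2.69. The one that rose was NCED3, the dioxygenase of abscisic acid synthesis, at 1.32 in dcl1-9 (limma adjusted p = 0.000381) and 1.38 in the WT (limma adjusted p = 0.00021). Between genotypes 2 were higher and 1 lower in light (5.92% and 3.33% of all probe sets), and 4 higher and 1 lower in darkness (4.45% and 3.02%). P5CS1 was higher in dcl1-9 by 1.81 in light (unshifted log2, limma adjusted p = 0.00182) and 1.00 in darkness (limma adjusted p = 0.0368). RD20, a calcium-binding protein of drought, was higher by 1.56 in light (limma adjusted p = 0.00051) and 1.32 in darkness (limma adjusted p = 0.00171). The one lower was NCED3, at -0.86 in light (limma adjusted p = 0.0275) and -0.91 in darkness (limma adjusted p = 0.0227).

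Proton pumps of the same membranes were followed too, beside the 23.7% of all probe sets called for darkness in dcl1-9 and 27.4% in the WT. Of 11 plasma membrane H+-ATPases, which energize uptake and cell expansion, 1 rose in dcl1-9 and 1 fell in the WT in darkness. Between genotypes 3 were higher in dcl1-9 in light (5.92% of all probe sets) and 3 in darkness (4.45%). In light these included AHA3 (0.76, unshifted log2, limma adjusted p = 0.0384) and AHA1 (0.68, limma adjusted p = 0.0156). In darkness AHA11 had the largest difference, at 1.33 (limma adjusted p = 0.00464). Of 10 vacuolar proton pump genes 2 fell in dcl1-9 and 3 in the WT, where 12.9% and 14.5% of all probe sets were lower. Of 7 borate exporters, partners of the boric acid channels, BOR1 alone rose, by 1.45 in dcl1-9 (limma adjusted p = 0.000627) and 1.65 in the WT (limma adjusted p = 0.000159).

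Among the marker lists of leaf cell types, that of the mesophyll had the most calls. Of 6 mesophyll markers 4 fell in darkness in dcl1-9 (12.9% of all probe sets) and 6 in the WT (14.5%), and their summed intensity was 4187 to 4512 in dcl1-9 dark, against 5940 to 6892 in dcl1-9 light, and 3509 to 4221 in WT dark, against 5969 to 7328 in WT light. The other lists are small, and their counts stand beside 23.7% of all probe sets called in either direction in dcl1-9 and 27.4% in the WT. Of 6 vascular markers 1 rose and 1 fell in dcl1-9 and 1 rose in the WT, with sums of 439 to 585 in dcl1-9 dark, 647 to 812 in dcl1-9 light, 507 to 571 in WT dark and 417 to 508 in WT light. Of 5 guard cell markers 1 fell in dcl1-9, and 2 rose and 2 fell in the WT. Their sums were 324 to 417 in dcl1-9 dark, 434 to 632 in dcl1-9 light, 238 to 324 in WT dark and 247 to 389 in WT light. Of 4 epidermis markers 0 were called in dcl1-9 and 1 fell in the WT, with sums of 726 to 897, 993 to 1527, 443 to 535 and 436 to 1067 in the same order of groups. No marker of the root, seed or pollen lists was higher in darkness in either genotype by limma, and 1 root marker fell in each. Between genotypes no mesophyll, epidermis, root, seed or pollen marker was called. In light 2 of the 5 guard cell markers and 1 of the 6 vascular markers were higher in dcl1-9 (5.92% of all probe sets). The part of these shifts in the aquaporin values was not tested.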

How the data were processed

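RNA of 12 leaf samples was measured on Arabidopsis Gene 1.1 ST array strips. The authors' deposited values are linear intensities, made in dChip from perfect-match probes with the Brainarray version 15 grouping after invariant-set normalization to an array of median intensity, with quality control in Expression Console, whose version is not given in the sources used here. Groups followed the sample titles, and 0 array columns were left out. The authors' deposited table of comparisons repeats the intensities (largest difference 0) and adds group means and standard errors, used here for the study's criterion alone. Its fold-changes with their bounds were not used.

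Intensities under 1 were set to 1 and log2 was taken. In R 4.3.3 with limma 3.58.1, 4 group means were fitted over 12 arrays and 27827 probe sets, with variances following intensity and 8 residual degrees of freedom before moderation, and the Benjamini-Hochberg adjusted p was called under 0.05 in 5 comparisons. The fit was tested on simulated data. Figures were drawn with matplotlib 3.10.9.

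Members, gene lists and tests were chosen with earlier results of these data known. Every array is given for members called with over 1.5-fold change, and for NIP1;2, chosen after its values were seen. From some of the other lists, called genes with large changes are named. RefSeq names for TAIR10.1 list 33 of the 34 member names, and TIP3;2 stands there under an older one. Neighbouring genes come from the same annotation.

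Alternatives were a constant of 16 added before the log, median centring of each array, quantile normalization, probe sets with means of 20 or more alone, variances free of the intensity trend, a test against a 1.2-fold minimum, a replicate block, fits of the compared groups alone, the study's 90% lower bound of the fold-change above 1.2, and leaving out each array.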

Additional observations from a re-analysis of the deposited data

Results flagged for a closer look

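SIP1;2 was singled out because its responses to darkness differed between the genotypes by a test of the difference itself, at -1.79 on the log2 scale (dcl1-9 minus WT, limma adjusted p = 0.0204). It was also singled out because all dark arrays lay below all light arrays in dcl1-9 and above them in the WT, a difference again of -1.79. NIP1;2 also had its arrays in opposite order, with a difference of -0.633, which did not pass the test of the difference (limma adjusted p = 0.626). In dcl1-9 this order rests on a near tie, with the highest dark array at 57.21 and the lowest light array at 57.35.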

How the results depend on the processing

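No member's estimate among the calls changed sign under any setting. All 11 dark calls in dcl1-9 held under every setting and left-out array, as did 8 of the 13 in the WT (PIP1;3, PIP1;5, PIP2;2, PIP2;5, PIP2;7, TIP1;2, TIP2;1 and SIP2;1). Against a 1.2-fold minimum, 2 members were lower in darkness in the WT (main 4), 0 higher and 1 lower in dcl1-9 in light (main 1 and 4), 1 lower in darkness (main 4) and 0 for the difference of the responses (main 1). With the compared groups alone, 0 were higher and 1 lower in light. The study's lower-bound criterion gave 7 lower in darkness. For the difference of the responses, centring each array on its median and dropping the intensity trend each left 0. Leaving out 1 array gave 8 to 10 higher and 3 to 3 lower members in dcl1-9 dark, 7 to 10 higher and 2 to 5 lower in WT dark, 0 to 1 higher and 1 to 6 lower for dcl1-9 against WT in light, 0 to 0 higher and 1 to 5 lower in darkness, and 0 to 0 higher and 0 to 1 lower for the difference. WT dark lower was 2 without WT light replicate 3. Light lower was 1 without WT light replicate 3, dcl1-9 light replicate 1 or dcl1-9 light replicate 2, and light higher was 0 without WT light replicate 1. Dark lower was 2 with WT dark replicate 1 left out, and 1 with the third WT dark array or dcl1-9 dark replicate 1 or 2 left out. Over all probe sets, median centring gave 2043 higher and 711 lower in dcl1-9 in darkness, where the main setting gave 1238 and 839, and 7 higher and 21 lower for the difference of the responses, where it gave 4 and 25. Causes were not tested.

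With the replicate number as a block, 11 members (main 4) fell below the WT in light and 7 (main 4) in darkness, and no other count moved by over 1.5 times. Lower calls rose over all 27827 probe sets too, to 2129 in light (main 926) and 1818 in darkness (main 839). The higher member counts are therefore not read as particular to aquaporins. Deviations of same-numbered arrays correlated at 0.03 to 0.34, with 14 of 18 pairs over 0.1, against -0.32 to 0.12 for other pairs, and 12 of 12 arrays correlated best with their own number. This is a hint from the data, since the labels do not say that a number marks shared material. Dim probe sets limit the reading of 8 members with means under 20.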
